A study of Mus musculus with 16 samples.

Results

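The cytosine mark 5-hydroxymethylcytosine (5hmC), which TET enzymes make from 5-methylcytosine, was read over 6 genes of interleukin-6-type cytokine signalling in mouse CD4 T cells. The genes were Il6ra, Il6st, Lifr, Il27ra, Il21r and Stat3. They were taken by name, and every region of the deposited table whose nearest transcript carries that symbol was counted as theirs, which gave 38 of 177720 regions and 6 of 15543 symbols. Il6st had 9 regions, Lifr and Stat3 had 8 each, Il6ra had 7, and Il27ra and Il21r had 3 each. Of the 38, 17 overlapped a transcript and 21 lay outside one, and widths ran from 267 to 48169 bp. Regions are numbered within each gene from the lowest to the highest coordinate of build mm9, so that region 1 is the 3′-most one for the minus-strand genes Il6ra, Il27ra and Stat3.

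The assay, CMS-IP, treats DNA with bisulfite, which gives 5hmC a methylenesulfonate adduct (CMS), and then enriches adduct-bearing fragments with a CMS-specific serum. The donors were C57BL/6 mice aged 5 to 6 weeks whose Foxp3 locus reports with eGFP, and their spleens and lymph nodes were used. Foxp3 defines regulatory T cells (Treg). The groups, 4 in number, were induced Treg (iTreg) differentiated from naive CD4 T cells with TGFβ, retinoic acid and vitamin C (RA+VitC iTreg), iTreg differentiated with TGFβ alone (TGFβ iTreg), sorted CD4+ eGFP+ Treg, and sorted naive CD4 T cells (eGFP-, CD25-, CD62L high, CD44 low). Pull-down and input were both sequenced for 2 replicates per group. Retinoic acid and vitamin C were always given together, and no group was cultured without TGFβ, so in both iTreg groups culture, activation and differentiation cannot be told apart. The labels do not say whether the 2 libraries of a group came from separate mice or cultures, so p-values measure the spread between libraries, which may be technical.

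As background, cytokines of this family bind a receptor chain of their own, which then pairs with gp130, the product of Il6st. The paired chains activate JAK kinases, and these phosphorylate STAT3, which enters the nucleus and turns on target genes. IL-6 and IL-21 drive Th17 differentiation through STAT3 and oppose the TGFβ-driven induction of Foxp3, whereas LIF and IL-27 are mostly described as restraining Th17 responses. 5hmC marks regions where methylated cytosine is being oxidised, often enhancers and transcribed gene bodies, and its level over a gene is not that gene's expression.

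Pull-downs held 3996442 and 3828487 reads in regions in RA+VitC iTreg, 1648804 and 2114056 in TGFβ iTreg, 7664194 and 8347328 in Treg, against 7773777 and 9731897 in naive cells. Inputs held 1028822 to 1563165. Per input read there were 3.14 to 3.88 pull-down reads in RA+VitC iTreg, 1.49 to 1.72 in TGFβ iTreg, 4.9 to 6.33 in Treg and 5.5 to 6.39 in naive cells, and the part of this ratio in the differences below was not tested. The summed 5hmC of 6 Treg marker genes (Foxp3, Ikzf2, Il2ra, Ctla4, Ikzf4, Tnfrsf18) was 3300 to 3450 CPM (reads scaled to library size) in RA+VitC iTreg, 2720 to 3080 in TGFβ iTreg, 2300 to 2310 in Treg and 840 to 855 in naive cells. The single markers differed in direction. In RA+VitC iTreg and TGFβ iTreg, Foxp3 differed from Treg by log2 0.17 and -1.06, Ikzf2 by -0.52 and -0.69, and Ikzf4 by 0.38 and -0.08. Il2ra was higher by 1.82 and 1.53, Ctla4 by 1.35 and 1.21, and Tnfrsf18 by 0.78 and 0.81. Against naive cells, Foxp3 in TGFβ iTreg was at 0.19 (edgeR adjusted p = 0.49). The sums of 5 T cell markers (Cd3d, Cd3e, Cd3g, Cd4, Cd28) were 439 to 535 CPM in the iTreg, 556 to 574 in Treg and 682 to 702 in naive cells. The sums of 6 B cell markers were 103 to 130 CPM in all 8 pull-downs, and those of 5 detected CD8 and NK cell markers were 111 to 155 in the iTreg, 249 to 259 in Treg and 326 to 328 in naive cells. Within the B cell list Pax5 was higher in RA+VitC iTreg (3.02-fold), TGFβ iTreg (3.87-fold) and Treg (1.58-fold) than in naive cells. Cd79b was higher in RA+VitC iTreg (1.46-fold) and TGFβ iTreg (1.38-fold), and Blk in Treg (1.48-fold). Cd79a was lower in RA+VitC iTreg (0.827-fold) and TGFβ iTreg (0.634-fold). The list medians were log2 0.02 in RA+VitC iTreg, -0.11 in TGFβ iTreg and 0.21 in Treg. The sums of 6 myeloid markers were 90.3 to 98 CPM in RA+VitC iTreg, 142 to 144 in TGFβ iTreg, 132 to 134 in Treg and 162 to 171 in naive cells. Itgam was lower in all 3 groups than in naive cells (log2 -0.97, -0.41 and -0.34), whereas Csf3r (2.38-fold and 4.05-fold) and Cebpa (3.01-fold and 4.37-fold) were higher in RA+VitC iTreg and TGFβ iTreg, and the median over the 5 tested myeloid markers was -0.16, 0.87 and -0.34. The part of other cells in the results was not tested.

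The transcription starts of these genes mostly lay in gaps between 5hmC regions. The start lay inside a region assigned to the gene only for Il21r, whose region 2 (chr7:132742677-132748837) spans it. The nearest assigned regions of Il6ra lay 0.5 kb upstream and 0.4 kb downstream of the start, those of Il6st 0.5 kb upstream and 1 kb downstream, and those of Stat3 1 kb upstream and 1.4 kb downstream. Region 3 of Il27ra began 0.4 kb downstream of its start. No region lay within 2.5 kb of a Lifr start. The 250 bases before the RefSeq start (build GRCm38.p6, whose coordinates were not converted to mm9) are printed for Lifr and Il6st, with starts outside regions, and Il21r, with its start inside one, with CpG dinucleotides, the sites where 5hmC arises, in capitals. The Lifr stretch is chr15:7129322-7129571 (+), that of Il6st chr13:112463820-112464069 (+) and that of Il21r chr7:125603179-125603428 (+).
Lifr: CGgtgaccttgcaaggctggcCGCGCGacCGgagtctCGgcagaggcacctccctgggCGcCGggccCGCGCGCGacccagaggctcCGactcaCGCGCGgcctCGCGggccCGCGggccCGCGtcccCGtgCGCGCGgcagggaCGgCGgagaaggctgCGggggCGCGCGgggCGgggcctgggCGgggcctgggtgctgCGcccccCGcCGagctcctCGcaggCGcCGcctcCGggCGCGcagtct
Il6st: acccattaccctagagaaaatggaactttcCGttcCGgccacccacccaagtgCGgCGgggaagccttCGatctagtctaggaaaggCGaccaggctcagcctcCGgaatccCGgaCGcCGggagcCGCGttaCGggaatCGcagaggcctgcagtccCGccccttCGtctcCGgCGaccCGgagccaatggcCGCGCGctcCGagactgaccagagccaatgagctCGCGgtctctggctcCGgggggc
Il21r: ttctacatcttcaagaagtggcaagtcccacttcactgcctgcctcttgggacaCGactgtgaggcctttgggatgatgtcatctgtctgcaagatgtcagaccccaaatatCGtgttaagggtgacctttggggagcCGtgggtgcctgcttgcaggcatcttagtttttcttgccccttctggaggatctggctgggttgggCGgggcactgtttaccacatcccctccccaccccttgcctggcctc

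These stretches held 43 CpG for Lifr, 26 for Il6st and 4 for Il21r. Those of Il6ra and Stat3 held 18 and 13, and a second RefSeq start of Lifr held 3. Among 10075 genes with a single RefSeq start, the start lay in a region for 13% of the 4806 with 15 or more CpG in this stretch and for 21.6% of the other 5269. The motif TTCNNNGAA, which STAT proteins bind and which reads the same on both strands, was in none of the 6 stretches of the 5 genes with an entry and in 7.02% of 32851 promoters of this length.

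Over the summed regions, Lifr differed most. Its 5hmC was high in both iTreg and near the lowest of all genes in the sorted cells, Il6ra was higher in both iTreg than in naive cells, and Il27ra was lower in both. Stat3 and Il21r were highest in RA+VitC iTreg, and Il6st was lowest in TGFβ iTreg. Set per length of region, Lifr stood at 10.5 ± 1.7 CPM per kb in RA+VitC iTreg (98.5th percentile of 14951 tested symbols), 11.6 ± 0.17 in TGFβ iTreg (98.9th), 1.26 ± 0.021 in Treg (1.2nd) and 0.649 ± 0.086 in naive cells (0.9th). The other genes were well covered in naive cells, from 7.78 ± 0.13 CPM per kb over Il6ra (98.9th percentile) to 3.88 ± 0.14 over Stat3 (64.5th; all SD, n = 2). Median levels over all symbols were 3.49 to 3.55 CPM per kb in the 4 groups.

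**Figure D1:**
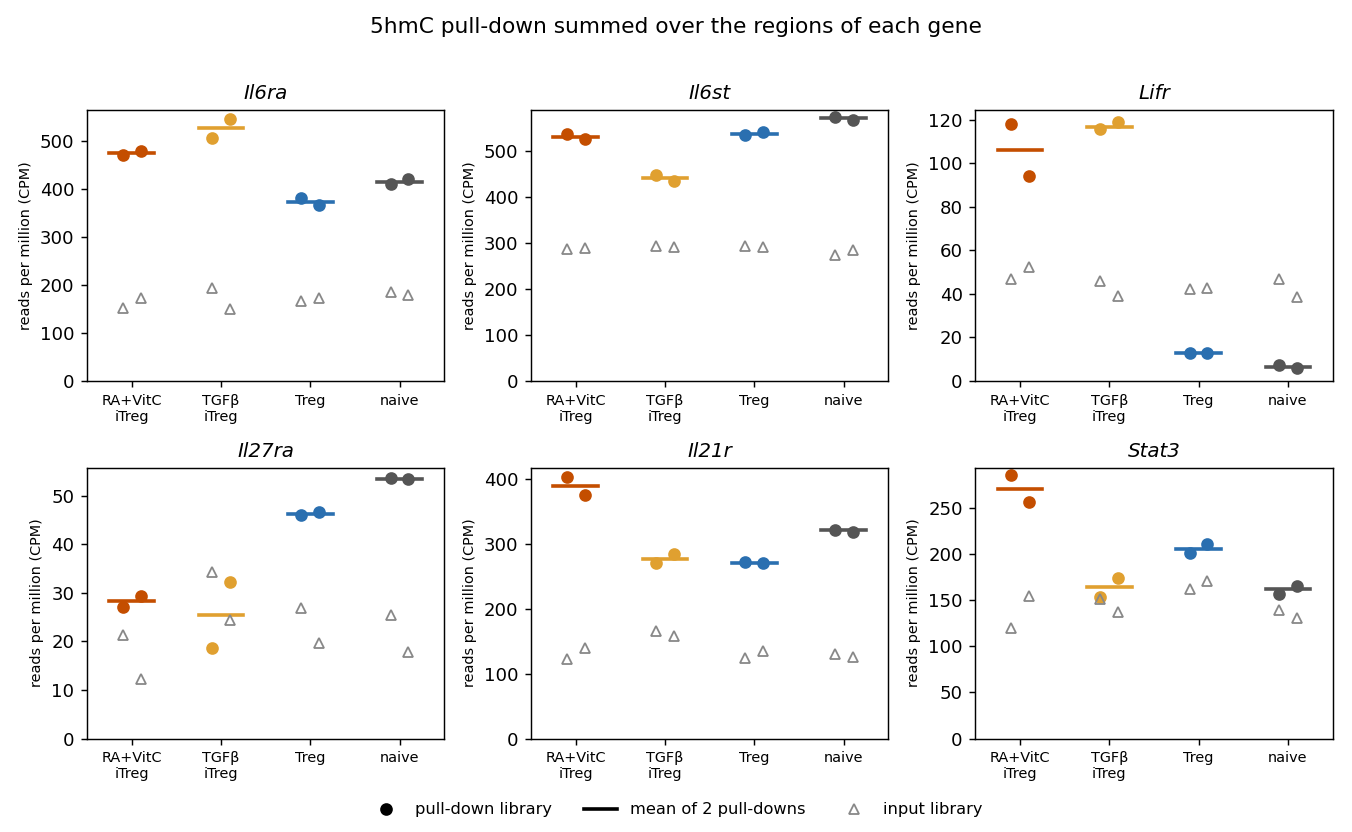
Library-scaled reads (CPM) summed over all regions of each gene (y axis, from 0) in the 4 groups (x axis). Filled circles are the 2 pull-down libraries of a group, lines their mean, and open triangles the 2 input libraries. Lifr pull-downs stand at 94.1 to 119 CPM in the iTreg and at 5.96 to 12.9 in the sorted cells, below their inputs there.

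Counted by region, RA+VitC iTreg had 16 of 34 tested regions higher and 3 lower than naive cells, against 21.9% and 15.8% of all tested regions (edgeR quasi-likelihood F test, Benjamini-Hochberg adjusted p under 0.05 over 135412 regions). TGFβ iTreg had 8 higher and 5 lower than naive cells, against 13.1% and 8.22% of all. Treg had 5 higher and 4 lower than naive cells, against 13% and 10.1%. RA+VitC iTreg had 6 higher and 2 lower than TGFβ iTreg, against 4.56% and 1.98%. Against Treg, RA+VitC iTreg had 16 higher and 3 lower (17.8% and 11.4% of all) and TGFβ iTreg 10 higher and 8 lower (9.58% and 5.82%). As shares of the 34, the higher calls were 47.1% for RA+VitC iTreg against naive cells and against Treg, 29.4% for TGFβ iTreg against Treg, 23.5% for TGFβ iTreg against naive cells, 17.6% between the 2 iTreg and 14.7% for Treg. Lifr gave 6 of the 16 higher calls of RA+VitC iTreg and 5 of the 8 of TGFβ iTreg over naive cells. Lifr regions 1, 2, 4, 5 and 8 reached the read minimum (1.72 CPM in at least 2 libraries) in iTreg libraries only, in 0 of the 4 sorted ones. They were tested because they were high in iTreg and so had to differ, and their calls are given as a description.

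The counts also moved with the processing. Thinned to the depth of the shallowest pull-down, the 16 higher calls of RA+VitC iTreg became 9 both against naive cells and against Treg, and they became 10 when only regions averaging 50 reads or more were kept. With plain library sizes, the median difference of all regions shifted by -0.21 for RA+VitC iTreg against naive cells and by -0.23 against Treg, and the 3 lower calls became 8 in both comparisons. Thinning took the 5 higher calls of Treg over naive cells to 3 and the 4 lower ones to 1, and the replicate block took the 5 lower calls of TGFβ iTreg against naive cells to 3. By DESeq2 the 5 higher and 4 lower calls of Treg became 3 and 2, the 5 lower calls of TGFβ iTreg against naive cells became 3 and the 8 against Treg became 4.

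The counts moved when a library was left out. The 8 lower calls of TGFβ iTreg against Treg became 3 without TGFβ iTreg replicate 1, 5 without its replicate 2 and 4 without Treg replicate 1, and the 2 lower calls of RA+VitC iTreg against TGFβ iTreg became 0 without either TGFβ iTreg library or RA+VitC iTreg replicate 2 and 1 without RA+VitC iTreg replicate 1. Against naive cells, the 3 lower calls of RA+VitC iTreg became 5 without either TGFβ iTreg library, and the 5 of TGFβ iTreg became 3 without TGFβ iTreg replicate 2. The 5 higher calls of Treg became 3 without Treg replicate 1 or naive replicate 2, and the 4 lower ones became 2 without naive replicate 1. The counts of higher regions of both iTreg stayed at 14 to 16 and 7 to 8 against naive cells. In the input libraries, 0 of the 21 regions with enough reads passed in any of the 6 comparisons (edgeR; 1 to 6 had an unadjusted p under 0.05), where 0% (Treg against naive cells, and RA+VitC iTreg against TGFβ iTreg), 0.00223% (TGFβ iTreg against naive cells and against Treg), 0.00445% (RA+VitC iTreg against Treg) and 0.00668% (RA+VitC iTreg against naive cells) of 44917 input regions passed. The input sums of the 6 genes also gave 0 calls in each comparison, with 0 to 2 at an unadjusted p under 0.05, where 0% of 12824 symbols passed between the 2 iTreg, 0.0156% for TGFβ iTreg and 0.0234% for both RA+VitC iTreg and Treg against naive cells, and against Treg 0.273% for RA+VitC iTreg beside 0.0702% for TGFβ iTreg.

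**Figure D2:**
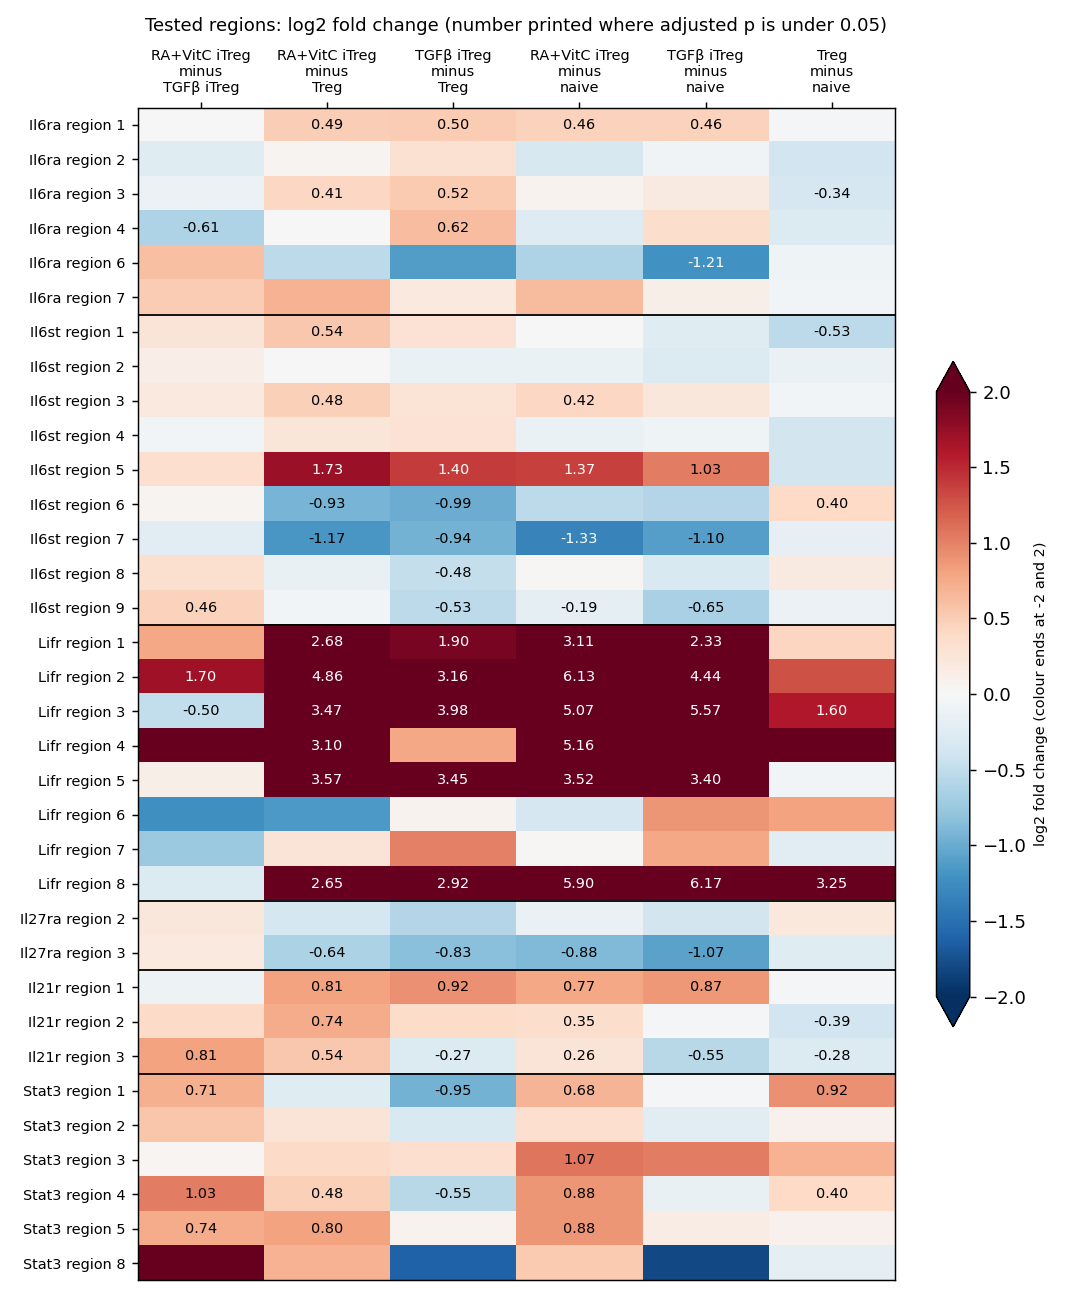
Fitted log2 fold change of each of the 34 tested regions (rows) in the 6 comparisons (columns); red is higher and blue lower in the group named on top, colours end at -2 and 2, and the value is printed where the adjusted p is under 0.05. The values of Lifr regions 4 and 8 against naive cells rest on 1 naive read. Lifr regions 1 to 3, 5 and 8 are printed in all 4 comparisons of an iTreg with sorted cells, and the regions of the other genes change in both directions. Of these Lifr regions, 1, 2, 5 and 8 entered the test through iTreg libraries alone.

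Over gene sums the background was wider. Of the 6 genes, 4 were higher and 1 lower in RA+VitC iTreg than in naive cells, against 29.2% and 26.6% of 14951 symbols. In TGFβ iTreg 2 were higher and 3 lower than in naive cells, against 23.4% and 18.2%. In Treg 2 were higher and 3 lower than in naive cells, against 20% and 19.2%. Between the 2 iTreg, 3 were higher and 1 lower in RA+VitC iTreg, against 12.4% and 10.7%. Against Treg, 4 were higher and 1 lower in RA+VitC iTreg (26.6% and 23.1% of all), and 2 were higher and 3 lower in TGFβ iTreg (20.7% and 15%). The comparisons with naive cells share the naive libraries, those with Treg share the Treg libraries and those with an iTreg share its libraries.

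**Figure D3:**
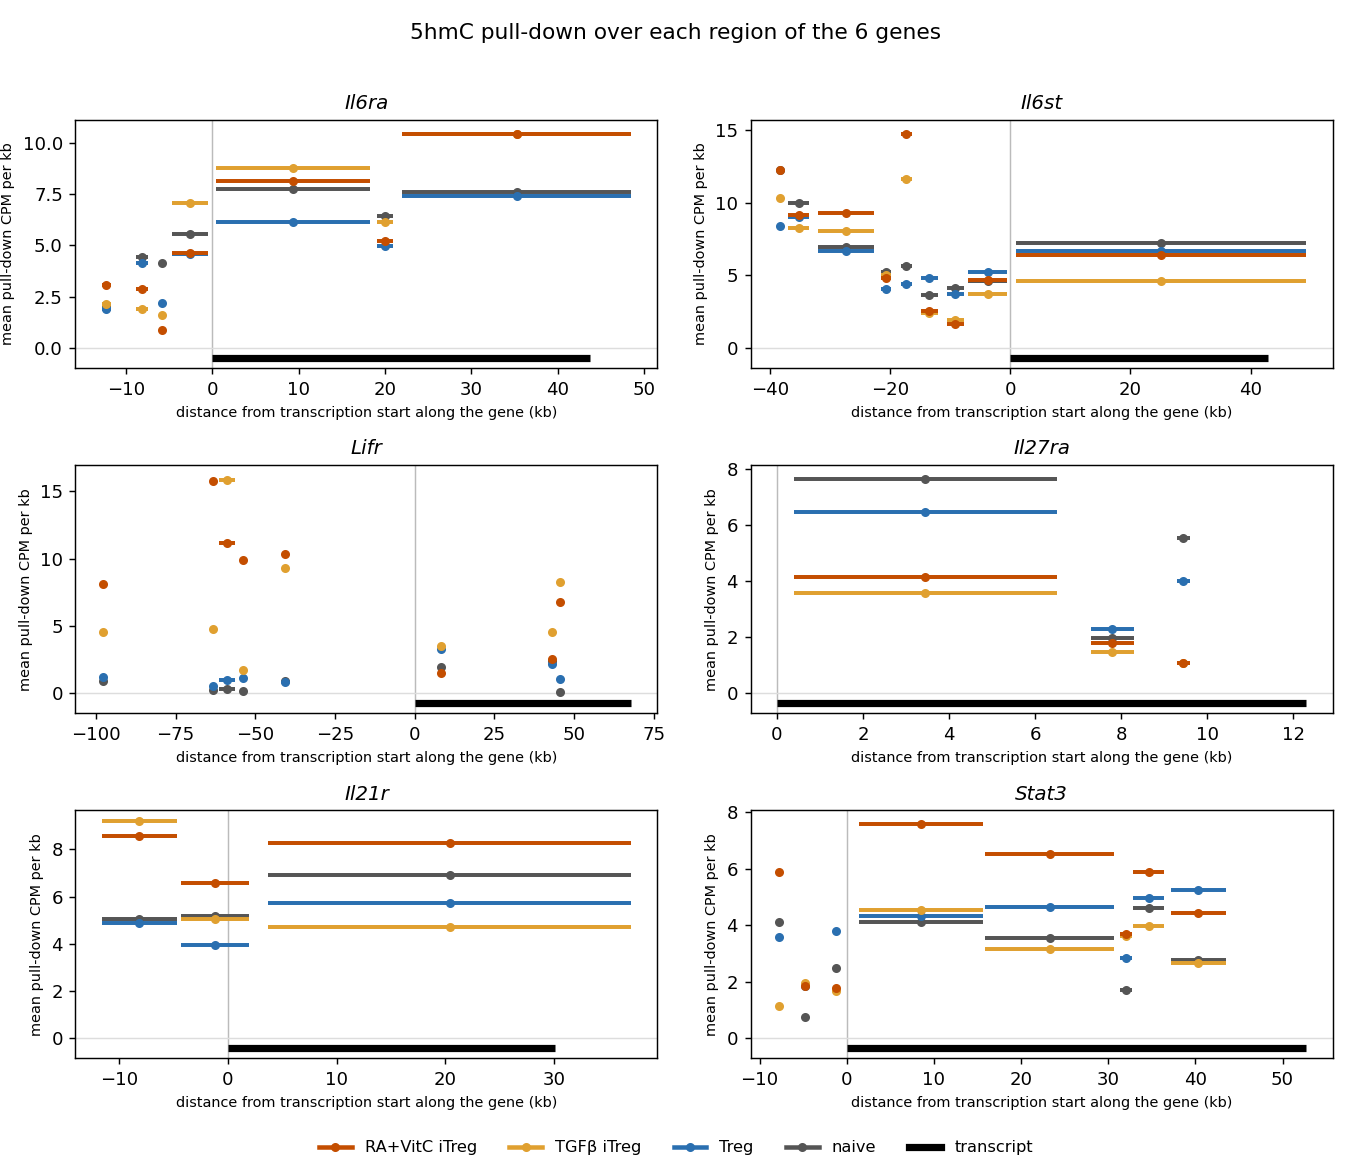
Mean pull-down CPM per kb of each region (y axis) against the distance of its ends from the transcription start along the gene in kb (x axis), in the 4 groups. The black bar is the longest transcript. Lifr regions 1, 2, 3 and 5, high in both iTreg, lie 40.2 to 97.4 kb before the start (nearer ends) and region 8, also high in both, 45.4 to 46.1 kb after it, and the Il6st, Stat3 and Il21r bodies separate RA+VitC iTreg from TGFβ iTreg.

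Il6ra encodes the chain that binds IL-6. Its summed 5hmC was 469 and 479 CPM in RA+VitC iTreg, 505 and 544 in TGFβ iTreg, 380 and 366 in Treg, against 409 and 419 in naive cells. Both iTreg lay above both kinds of sorted cells in every library, and Treg lay lowest. Over naive cells the sum was raised in TGFβ iTreg by 0.35 on the log2 scale (SE 0.05, edgeR adjusted p = 3.8e-08) and in RA+VitC iTreg by 0.20 (SE 0.05, adjusted p = 0.00037), and against Treg the differences were 0.35 for RA+VitC iTreg and 0.50 for TGFβ iTreg. With plain library sizes the difference of RA+VitC iTreg from naive cells was 0.04 and no longer passed, and that from Treg was 0.19. Treg were lower than naive cells by 0.15 (adjusted p = 0.0049), which did not pass without Treg replicate 2 (-0.13) or naive replicate 2 (-0.13) or thinned (-0.07), and RA+VitC iTreg were lower than TGFβ iTreg by 0.15 (adjusted p = 0.047), which passed in only 4 of 16 alternatives.

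Against naive cells, only region 1 of Il6ra was called higher in the main model. It lies on the 3′ side of the gene (chr3:89668585-89695106, exons, introns and 3′ UTR) and carried the most reads, 277 and 276 CPM in RA+VitC iTreg, 258 and 294 in TGFβ iTreg, 201 and 191 in Treg, against 199 and 204 in naive cells. The iTreg libraries did not overlap the sorted ones, and the log2 difference from naive cells was 0.46 for both iTreg (SE 0.08 each, adjusted p = 2.6e-08 for RA+VitC iTreg and 8.3e-07 for TGFβ iTreg; 0.24 for RA+VitC iTreg with plain library sizes, still called). Region 3 (chr3:89698760-89716692), which fills the intron sequence nearest to the start, showed another order. It had 143 and 149 CPM in RA+VitC iTreg, 148 and 166 in TGFβ iTreg, 109 and 111 in Treg, against 136 and 142 in naive cells, so that Treg stood below all other libraries (log2 -0.34 from naive cells, SE 0.08, adjusted p = 0.00013; -0.24 with no call when libraries were thinned to equal depth).

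Upstream of Il6ra the signal was smaller. Region 4 (chr3:89717607-89721735), 0.5 kb before the start, had 18.9 and 19.3 CPM in RA+VitC iTreg against 29.8 and 28.5 in TGFβ iTreg. The log2 difference was -0.61 (SE 0.20, adjusted p = 0.04), and the same region was higher in TGFβ iTreg than in Treg by 0.62 (adjusted p = 0.0054). Leaving out any RA+VitC or TGFβ iTreg library gave -0.54 to -0.59 for the first with no call, and leaving out either TGFβ iTreg library gave 0.58 and 0.63 for the second with no call. The first was also lost by DESeq2, with no filter and thinned (-0.48 when thinned), and the second by DESeq2 (0.63) and with the replicate block (0.57). Region 6 (chr3:89724632-89726020) was lower in TGFβ iTreg than in naive cells (-1.21, adjusted p = 0.028) on 5 reads in each TGFβ iTreg library, a call lost without either of those libraries (-1.34 and -1.11) or without naive replicate 1 (-1.15), by DESeq2 (-1.21), with the replicate block (-1.08) and thinned (-1.16). Region 5 was not tested for want of reads, and regions 2 and 7 passed in no comparison.

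Il6st encodes gp130, the chain the family shares. Its summed 5hmC was 538 and 527 CPM in RA+VitC iTreg, 448 and 436 in TGFβ iTreg, 536 and 541 in Treg, against 575 and 568 in naive cells. TGFβ iTreg stood apart below the other 3 groups. The log2 difference of TGFβ iTreg was -0.37 from naive cells (SE 0.05, edgeR adjusted p = 4.1e-09) and -0.29 from Treg (adjusted p = 7.2e-06), and RA+VitC iTreg were higher than TGFβ iTreg by 0.27 (SE 0.06, adjusted p = 0.00012). RA+VitC iTreg and Treg did not differ past the threshold from naive cells (-0.10, adjusted p = 0.059, and -0.09, adjusted p = 0.11). The first passed at -0.10 without either TGFβ iTreg library or with regions averaging 50 reads or more, at -0.21 over regions on the transcript (adjusted p = 0.00052) and at -0.26 with plain library sizes (adjusted p = 5.1e-08). With library sizes RA+VitC iTreg were also below Treg (-0.18, adjusted p = 0.00017) and their difference from TGFβ iTreg was 0.17. Over the transcript alone, TGFβ iTreg differed from naive cells by -0.56 and from Treg by -0.47.

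The sum of Il6st hid changes in opposite directions. Region 9 (chr13:113255302-113303470) covers the whole gene body and holds most reads, 314 and 300 CPM in RA+VitC iTreg, 222 and 223 in TGFβ iTreg, 314 and 327 in Treg, against 353 and 346 in naive cells. Only TGFβ iTreg stood clearly apart, by -0.65 from naive cells (SE 0.09, adjusted p = 1e-12), with RA+VitC iTreg 0.46 above them (adjusted p = 2.1e-05) and 0.19 below naive cells. That last difference (adjusted p = 0.036) was lost without either RA+VitC iTreg library (-0.18 and -0.12) or naive replicate 1 (-0.20), by DESeq2 (-0.18), with no filter (-0.14) and with the replicate block (-0.16, adjusted p = 0.33 from edgeR). With plain library sizes it was -0.40, and the difference between the 2 iTreg was 0.29.

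Upstream of Il6st, region 5 (chr13:113236104-113237922, 16.4 kb before the start) ran the other way. It had 27.1 and 26.5 CPM in RA+VitC iTreg, 20.7 and 21.7 in TGFβ iTreg, 8 and 8.09 in Treg, against 9.52 and 11.1 in naive cells, with no overlap between iTreg and sorted cells. The rise over naive cells was 2.58-fold in RA+VitC iTreg (log2 1.37, SE 0.16, adjusted p = 1.8e-15) and 2.04-fold in TGFβ iTreg (1.03, SE 0.21, adjusted p = 2e-05). Region 7 (chr13:113243707-113246570), closer to the start, fell.

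Region 7 of Il6st had 5.37 and 4.03 CPM in RA+VitC iTreg, 5.74 and 5.31 in TGFβ iTreg, 12.1 and 9.23 in Treg, against 10.8 and 12.8 in naive cells. Both iTreg lay below all sorted libraries, by -1.33 (SE 0.25, adjusted p = 1.5e-06) and -1.10 (SE 0.31, adjusted p = 0.0028) against naive cells, the second lost without TGFβ iTreg replicate 2 (-1.07), by DESeq2 (-1.09), with the replicate block (-0.98, adjusted p = 0.06) and thinned (-0.89). Region 6, between these regions, was lower in both iTreg than in Treg (-0.93 and -0.99), calls lost without RA+VitC iTreg replicate 1 (-0.76) for the first and without TGFβ iTreg replicate 2 (-0.82) or Treg replicate 1 (-0.82) or by DESeq2 (-0.98) for the second. Region 3 rose in RA+VitC iTreg (0.42 over naive cells, adjusted p = 8.8e-05; 0.30 with no call when thinned and 0.20 with plain library sizes), and region 8, 0.5 kb before the start, did not pass against naive cells in any group. Region 1, at the far upstream end, was lower in Treg than in naive cells (-0.53, adjusted p = 0.01), lost without Treg replicate 1 (-0.30) or naive replicate 1 (-0.45) or by DESeq2 (-0.54) and at 0.08 when libraries were thinned to equal depth. Regions 2 and 4 passed in no comparison.

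Some regions further upstream of Il6st were higher in both iTreg than in naive cells, and part of these were higher in Treg too. In all, 5 regions 39818 to 63276 bp before its start have Il6st as the nearest start, although the table assigns them by nearest transcript to Ankrd55, and 3 of the 5 were higher in both iTreg than in naive cells, against 21.9% (RA+VitC iTreg) and 13.1% (TGFβ iTreg) of all tested regions. Of the others, the region at chr13:113205961-113214459, the closest to the start, was lower in TGFβ iTreg (-0.38, adjusted p = 0.03) and in Treg (-0.42, adjusted p = 9.2e-05) than in naive cells and did not pass in RA+VitC iTreg (0.07), and the fifth passed against naive cells in no group. The region at chr13:113195875-113199233 had 23.2 and 17 CPM in RA+VitC iTreg, 39 and 29.9 in TGFβ iTreg, 9.11 and 10.3 in Treg, against 8.04 and 6.94 in naive cells. It rose 2.7-fold in RA+VitC iTreg and 4.58-fold in TGFβ iTreg over naive cells (adjusted p = 4.9e-13 and 6.5e-27), and did not pass in Treg (1.3-fold). The regions at chr13:113185418-113191001 and chr13:113199881-113205549 were also higher in Treg than in naive cells. Their log2 differences were 0.69 and 0.55 (edgeR adjusted p = 1.1e-07 and 2e-05), where 13% of all tested regions were higher. In TGFβ iTreg they were 0.68 and 1.07. Summed by nearest start, an alternative chosen after seeing the data, Il6st differed from naive cells by -0.15 in TGFβ iTreg, from Treg by -0.12 in TGFβ iTreg with no call, and from Treg by 0.12 in RA+VitC iTreg (adjusted p = 0.027) in place of -0.02.

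Lifr encodes the chain that pairs with gp130 to receive LIF. Its summed 5hmC was 118 and 94.1 CPM in RA+VitC iTreg, 116 and 119 in TGFβ iTreg, 12.6 and 12.9 in Treg, against 7.19 and 5.96 in naive cells. Every iTreg library was far above every sorted one, and Treg lay above naive cells. The difference from naive cells was 16.2-fold in RA+VitC iTreg (log2 4.02, SE 0.13, edgeR adjusted p = 5e-59), 18-fold in TGFβ iTreg (log2 4.17, SE 0.15, adjusted p = 2.5e-54) and 1.96-fold in Treg (log2 0.97, SE 0.18, adjusted p = 1.5e-06). The inputs stood at 38.8 to 52.5 CPM in all groups, so the sorted pull-downs lay below their inputs over Lifr in CPM. The 2 iTreg overlapped (log2 -0.15, adjusted p = 0.33).

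Most Lifr reads lay outside the gene. Regions before the start held 91.9% and 94.6% of Lifr reads in RA+VitC iTreg, 86.7% and 93% in TGFβ iTreg, 58.5% and 68.6% in Treg, against 53.7% and 51.8% in naive cells. Region 3 (chr15:7018376-7023391, 56.2 kb before the start) alone had 62.4 and 49.6 CPM in RA+VitC iTreg, 78.6 and 80.1 in TGFβ iTreg, 4.56 and 5.47 in Treg, against 1.61 and 1.68 in naive cells. The 4 groups did not overlap there. The rise over naive cells was 33.5-fold in RA+VitC iTreg (log2 5.07, SE 0.19, adjusted p = 3.9e-146), 47.5-fold in TGFβ iTreg (log2 5.57, SE 0.20, adjusted p = 1.2e-161) and 3.02-fold in Treg (log2 1.60, SE 0.30, adjusted p = 2.1e-06).

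The 2 iTreg differed between neighbouring Lifr regions. Region 2 (chr15:7015572-7017139), directly upstream of region 3, had 25.4 and 23.9 CPM in RA+VitC iTreg, 5.74 and 9.17 in TGFβ iTreg, 0.616 and 1.03 in Treg, against 0.371 and 0.297 in naive cells. RA+VitC iTreg were 3.24-fold above TGFβ iTreg (SE 0.27 on the log2 scale, adjusted p = 6e-08). In region 3 they were below TGFβ iTreg by 0.50 on the log2 scale (SE 0.13, adjusted p = 0.0026), a call lost without RA+VitC iTreg replicate 2 (-0.30) or either TGFβ iTreg library (-0.48 and -0.43).

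The other upstream Lifr regions were small but moved the same way. Regions 1, 4 and 5 were tested because they were high in iTreg, so their differences from sorted cells are given as a description. Region 5 (chr15:7038772-7039403) had 7.91 and 5.19 CPM in RA+VitC iTreg, 4.02 and 7.72 in TGFβ iTreg, 0.493 and 0.569 in Treg, against 0.742 and 0.396 in naive cells (log2 3.52 and 3.40 over naive cells). Region 1, 97.4 kb before the start, rose 8.65-fold in RA+VitC iTreg and 5.03-fold in TGFβ iTreg over naive cells, the second lost without TGFβ iTreg replicate 2 (log2 1.45) or naive replicate 2 (1.79). Region 4 had 19 reads in RA+VitC iTreg and 1 in naive cells over the 2 libraries of each, a ratio of 49.3 after scaling with an exact interval of 7.83 to 2050 at 95% confidence, which covers counting error only. In TGFβ iTreg it had 0 and 2 reads and did not pass.

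Inside the Lifr gene, region 8 (chr15:7125013-7125683, exon and intron) was the only one of 3 to pass. It had 32 reads in RA+VitC iTreg, 21 in TGFβ iTreg, 12 in Treg and 1 in naive cells, and the naive replicate 2 library had 0, which allows up to 0.297 CPM (3 reads). The ratio to naive cells was 83 for RA+VitC iTreg (exact interval 13.9 to 3380), with an exact interval of 16.1 to 4140 for TGFβ iTreg and a ratio of 12.9 for Treg (1.91 to 552). Region 8 reached the read minimum in iTreg libraries only and so had to differ, and its iTreg ratios are given as a description. The adjusted p of edgeR's quasi-likelihood test was 0.011 for Treg against naive cells. That call was lost without Treg replicate 1 (log2 3.17) or naive replicate 2 (2.29), and by DESeq2 (adjusted p = 0.14). Regions 6 (intron) and 7 (exon and intron) stood at 0.483 to 5.17 CPM in all libraries and passed in no comparison. Over regions on the transcript alone, Lifr rose by 1.29 in RA+VitC iTreg and 1.96 in TGFβ iTreg on the log2 scale over naive cells, and Treg no longer passed (0.60). This sum joins regions 6 and 7, which passed in no comparison, with region 8, so its iTreg rises are also given as a description.

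Il27ra encodes the chain that pairs with gp130 to receive IL-27. Its summed 5hmC was 27.1 and 29.4 CPM in RA+VitC iTreg, 18.6 and 32.3 in TGFβ iTreg, 46 and 46.6 in Treg, against 53.7 and 53.4 in naive cells. Both iTreg lay below the sorted cells in every library, and the TGFβ iTreg libraries lay far apart. The log2 difference from naive cells was -0.92 in RA+VitC iTreg (SE 0.12, edgeR adjusted p = 1.7e-11) and -1.03 in TGFβ iTreg (SE 0.15, adjusted p = 5.6e-09). The inputs stood at 21.4 and 12.3 CPM in RA+VitC iTreg and at 34.3 and 24.4 in TGFβ iTreg, and the mean of the TGFβ iTreg pull-downs was 25.4 ± 9.6 CPM beside 29.3 ± 7 in their inputs (SD, n = 2).

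Treg were lower than naive cells over Il27ra by 0.21 (adjusted p = 0.043), a call lost when any Treg or naive library was left out (-0.20 to -0.22), with plain library sizes (-0.20), by DESeq2 (-0.21), thinned (-0.33) and over the transcript alone (-0.20). Region 3 (chr8:86560018-86566065) held most reads, 24.3 and 25.9 CPM in RA+VitC iTreg, 14.9 and 28 in TGFβ iTreg, 38.3 and 40 in Treg, against 46 and 46.5 in naive cells. It begins 0.4 kb after the start, was lower in both iTreg than in naive cells (-0.88 and -1.07) and lower than in Treg (-0.64 and -0.83), the last lost without TGFβ iTreg replicate 1 (-0.49). The size in TGFβ iTreg turned on 1 library, at -0.73 from naive cells without replicate 1 and -1.66 without replicate 2, which gave -1.41 from Treg. Region 2 passed in no comparison and region 1 was not tested.

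The neighbours on both sides of Il27ra were lower too. The region that overlaps its 3′ end (chr8:86550928-86555230), assigned to Palm3, was lower in RA+VitC iTreg and TGFβ iTreg than in naive cells by 0.93 and 0.88, and the one that overlaps its promoter (chr8:86566788-86574898), assigned to Rln3, by 0.96 and 0.63 (adjusted p of the 4 between 1.7e-10 and 0.0013).

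Il21r encodes the receptor for IL-21, which pairs with the common γ chain and not with gp130. Its summed 5hmC was 404 and 376 CPM in RA+VitC iTreg, 270 and 285 in TGFβ iTreg, 272 and 270 in Treg, against 322 and 319 in naive cells. RA+VitC iTreg were highest, naive cells came next, and TGFβ iTreg overlapped Treg. RA+VitC iTreg were above TGFβ iTreg by 0.49 (log2, SE 0.07, edgeR adjusted p = 8e-10), above Treg by 0.53 (SE 0.05, adjusted p = 2e-16) and above naive cells by 0.28 (SE 0.05, adjusted p = 8.8e-07). Treg were below naive cells by 0.24 (adjusted p = 1.3e-05) and TGFβ iTreg by 0.21 (adjusted p = 0.0049), the second lost without TGFβ iTreg replicate 1 (-0.17) or with the replicate block (-0.19) and the first when thinned (-0.21). The difference of RA+VitC iTreg from naive cells was 0.13 with plain library sizes and 0.18 thinned, still past the threshold.

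Against naive cells, TGFβ iTreg had more 5hmC in region 1 upstream of Il21r and less over the body. Region 1 (chr7:132735328-132742269, 4.7 kb before the start) had 64.1 and 55 CPM in RA+VitC iTreg, 63.1 and 64.7 in TGFβ iTreg, 33.5 and 34.3 in Treg, against 37.2 and 32.9 in naive cells. Both iTreg were above the sorted cells without overlap, by 1.71-fold (log2 0.77, SE 0.11, adjusted p = 8.4e-11) and 1.83-fold (log2 0.87, SE 0.13, adjusted p = 7.9e-10) over naive cells. Region 3 (chr7:132750648-132784087), which covers the rest of the gene, had 290 and 264 CPM in RA+VitC iTreg, 147 and 168 in TGFβ iTreg, 191 and 190 in Treg, against 229 and 234 in naive cells. A further pair of regions 12192 and 14968 bp before the start, assigned to Il4ra by nearest transcript, did not follow region 1. The outer one (chr7:132730202-132731974) was lower in TGFβ iTreg than in naive cells (-0.69, adjusted p = 0.045) and at -0.27 in RA+VitC iTreg with no call. The inner one (chr7:132732810-132734750) passed against naive cells in no group and was higher in RA+VitC iTreg than in Treg (0.63, adjusted p = 0.012).

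In region 3 the 4 groups followed one another without overlap, with RA+VitC iTreg above TGFβ iTreg by 0.81 (SE 0.10, adjusted p = 9.3e-15). TGFβ iTreg were below naive cells by 0.55 (adjusted p = 5.2e-08) and RA+VitC iTreg above them by 0.26 (adjusted p = 0.0025), the second lost without RA+VitC iTreg replicate 1 (0.23) or either naive library (0.22 and 0.21). That second difference was 0.05 with plain library sizes (adjusted p = 0.53), 0.08 thinned (adjusted p = 0.49) and 0.27 with the replicate block (adjusted p = 0.066). Region 2, which holds the start, was higher in RA+VitC iTreg than in Treg by 0.74 (adjusted p = 1.9e-07) and lower in Treg than in naive cells by 0.39 (adjusted p = 0.0039), the second lost without naive replicate 1 (-0.35) or by DESeq2 (-0.39). Thinned to equal depth, neither passed, at 0.28 (adjusted p = 0.32) and -0.11 (adjusted p = 0.83). Its higher level in RA+VitC iTreg than in naive cells (0.35, adjusted p = 0.015) was lost without RA+VitC iTreg replicate 2 (0.30) or naive replicate 2 (0.22), by DESeq2 (0.35), with plain library sizes (0.14), thinned (0.17) and with the replicate block (0.26).

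Stat3 encodes the transcription factor that these receptors activate. Its summed 5hmC was 286 and 257 CPM in RA+VitC iTreg, 154 and 174 in TGFβ iTreg, 201 and 211 in Treg, against 157 and 166 in naive cells. RA+VitC iTreg were highest and Treg next, and TGFβ iTreg overlapped naive cells. RA+VitC iTreg were above naive cells by 1.68-fold (log2 0.75, SE 0.06, edgeR adjusted p = 1.1e-22), above TGFβ iTreg by 1.65-fold (log2 0.72, SE 0.08, adjusted p = 1.5e-13) and above Treg by 1.32-fold (log2 0.40, SE 0.06, adjusted p = 2.4e-09). Treg were 1.27-fold above naive cells (log2 0.35, SE 0.05, adjusted p = 3.3e-08). The Stat3 inputs of Treg also stood above those of naive cells, at 162 and 171 against 140 and 131 CPM (1.22-fold, log2 0.28, unadjusted p = 0.0043, edgeR adjusted p = 0.5), and their part in the pull-down difference was not tested. The inputs of RA+VitC iTreg were at 120 and 155 CPM (log2 0.05 from naive cells). With plain library sizes RA+VitC iTreg were above Treg by 0.24. TGFβ iTreg did not pass against naive cells (0.03, adjusted p = 0.82), and their pull-downs averaged 164 ± 14 CPM against 144 ± 10 in their inputs (SD, n = 2).

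The higher level of RA+VitC iTreg over Stat3 lay in the regions of the gene body that are assigned to Stat3. Region 5 (chr11:100785181-100799449), the long stretch that begins 1.4 kb after the start, had 116 and 101 CPM in RA+VitC iTreg, 64.3 and 65.7 in TGFβ iTreg, 60.5 and 63.4 in Treg, against 56.4 and 60.7 in naive cells. RA+VitC iTreg stood alone above the other 3 groups, by 1.84-fold over naive cells (log2 0.88, SE 0.09, adjusted p = 1.3e-19). Region 4 (chr11:100770100-100784879) had 103 and 89.6 CPM in RA+VitC iTreg, 39 and 54.1 in TGFβ iTreg, 64.7 and 73.1 in Treg, against 52.4 and 52.2 in naive cells. It rose in RA+VitC iTreg by 0.88 over naive cells and by 1.03 over TGFβ iTreg (SE 0.10 and 0.13, adjusted p = 3.3e-18 and 6.7e-12), and in Treg by 0.40 over naive cells (adjusted p = 9e-05).

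In the 3′ part of Stat3 the order was another. Region 1 (chr11:100757336-100763603), whose nearest start is that of the neighbour Stat5a, had 28 and 27.7 CPM in RA+VitC iTreg, 14.3 and 19.3 in TGFβ iTreg, 34.6 and 31.2 in Treg, against 17.6 and 17.2 in naive cells. Treg were highest, 1.89-fold above naive cells (log2 0.92, SE 0.12, adjusted p = 3.9e-13), and RA+VitC iTreg came next (0.68 above naive cells, adjusted p = 3.7e-05). Region 3 rose in RA+VitC iTreg over naive cells (1.07, adjusted p = 0.0093), lost without RA+VitC iTreg replicate 1 (0.94) or naive replicate 1 (0.82) or by DESeq2 (1.09). Region 8, upstream of the gene, and region 2 passed in no comparison, and regions 6 and 7 were not tested. No Stat3 region passed between TGFβ iTreg and naive cells, and regions 1 and 4 were lower in TGFβ iTreg than in Treg (-0.95 and -0.55), the second lost without TGFβ iTreg replicate 1 (-0.36) and at -0.84 without replicate 2.

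A further region 10935 bp before the Stat3 start (chr11:100811761-100816122), assigned to Cavin1, was higher than in naive cells by 1.19 in RA+VitC iTreg (adjusted p = 4.3e-11) and by 0.70 in Treg (adjusted p = 3.9e-05). It had 25.1 and 21.9 CPM in RA+VitC iTreg, 14.3 and 13.5 in TGFβ iTreg, 15.4 and 18.1 in Treg, against 12.9 and 8.22 in naive cells. The region that overlaps the 3′ end of Stat3 (chr11:100739365-100756604, exons, introns and 3′ UTR), assigned to Stat5a, passed in no comparison. Its log2 difference in RA+VitC iTreg was 0.22 from naive cells (edgeR adjusted p = 0.059) and 0.33 from TGFβ iTreg (edgeR adjusted p = 0.12).

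Other genes of the pathway were read from 5 lists of gene sums. Over all symbols, 29.2% were higher and 26.6% lower than in naive cells in RA+VitC iTreg, 23.4% and 18.2% in TGFβ iTreg, and 20% and 19.2% in Treg. Of 11 tested ligand genes, 6 rose and 1 fell in RA+VitC iTreg, 7 rose and 1 fell in TGFβ iTreg, and 3 rose and 1 fell in Treg, all against naive cells, with medians of 0.60, 0.61 and 0.21 on the log2 scale, beside medians of -0.02, -0.02 and 0 over all symbols. Lif, the ligand of the Lifr product, had 339 and 314 CPM in RA+VitC iTreg, 229 and 253 in TGFβ iTreg, 167 and 159 in Treg, against 94.1 and 97.7 in naive cells. The 4 groups did not overlap, and Lif differed from naive cells by 1.76, 1.33 and 0.76 (SE 0.06, 0.08 and 0.06). Ebi3, a subunit of IL-27, differed by 1.69, 1.27 and 1.01. Il21, which encodes the ligand of the IL-21 receptor, fell in all 3 groups by 0.86, 0.49 and 0.58, and it also fell by 0.37 in RA+VitC iTreg against TGFβ iTreg.

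The list of other receptors had 8 tested genes, Osmr, Cntfr, Il31ra, Csf3r, Il12rb1, Il12rb2, Il23r and Il2rg. The last encodes the common γ chain, which is not of the gp130 family, and had 10 reads in each RA+VitC iTreg library. Of the 8, 3 rose and 5 fell in RA+VitC iTreg, 3 rose and 3 fell in TGFβ iTreg, and 1 rose and 3 fell in Treg, against naive cells, where 29.2%, 23.4% and 20% of all symbols were higher and 26.6%, 18.2% and 19.2% lower. Cntfr, the receptor for ciliary neurotrophic factor, which uses gp130 and the Lifr product, had 16.3 and 16.2 CPM in RA+VitC iTreg, 22.5 and 27.6 in TGFβ iTreg, 4.44 and 2.96 in Treg, against 2.53 and 2.66 in naive cells. It was high in both iTreg (log2 2.63 and 3.27 over naive cells, SE 0.26 and 0.27). Osmr, the oncostatin M receptor chain, was lower in RA+VitC iTreg than in naive cells (-1.40, SE 0.29) and than in TGFβ iTreg (-1.36, SE 0.39). These values rest on 10 and 15 reads in RA+VitC iTreg and 16 and 17 in TGFβ iTreg. Mean pull-downs there, 3.7 and 9.56 CPM, lay below the inputs at 9.45 and 10.8 CPM. Il12rb2, a chain of the IL-12 receptor, was lower in RA+VitC iTreg (-1.19), TGFβ iTreg (-0.37) and Treg (-0.48) than in naive cells. Csf3r, the G-CSF receptor gene and also a myeloid marker, rose in the iTreg (1.25 in RA+VitC iTreg and 2.02 in TGFβ iTreg) on 19 to 24 reads per iTreg library.

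Of 9 genes for JAK kinases and other STATs, 3 rose and 4 fell in RA+VitC iTreg, 2 rose and 3 fell in TGFβ iTreg, and 4 rose and 2 fell in Treg, against naive cells. Over all symbols the shares higher were 29.2%, 23.4% and 20% and those lower 26.6%, 18.2% and 19.2%. Stat4, which acts downstream of IL-12, was higher by 0.95, 0.74 and 0.31, and Jak2 by 0.80, 0.42 and 0.43. Jak1, a kinase that gp130 binds, was lower by 0.19, 0.35 and 0.32. The list named negative regulators held Socs1, Socs3, Pias3, Ptpn2, Ptpn6, Ptpn11, Adam10 and Adam17. It mixes inhibitors with phosphatase and protease genes, so its counts are not counts of inhibitors. Of these 8, 5 rose and 1 fell in RA+VitC iTreg, 3 rose and 1 fell in TGFβ iTreg, and 2 rose and 1 fell in Treg, beside the same shares over all symbols. Socs1, an inhibitor of JAK kinases, rose by 1.56 in RA+VitC iTreg and 1.52 in TGFβ iTreg and was at -0.01 in Treg, which did not pass. Socs3, the inhibitor that binds gp130, rose in RA+VitC iTreg over naive cells (0.42, SE 0.06) and over TGFβ iTreg (0.39, SE 0.08). Ptpn6, a phosphatase gene, fell in all 3 groups by 0.46, 0.46 and 0.34.

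Of 20 STAT3 target genes, 16 rose and 3 fell in RA+VitC iTreg, 12 rose and 2 fell in TGFβ iTreg, and 9 rose and 2 fell in Treg, against naive cells, with medians of 0.60, 0.45 and 0.16, beside 29.2%, 23.4% and 20% higher and 26.6%, 18.2% and 19.2% lower over all symbols. Pim1, a kinase gene, was higher than in naive cells by 1.64 in RA+VitC iTreg, 1.45 in TGFβ iTreg and 0.45 in Treg. Il17a, which encodes the Th17 cytokine IL-17A, had 3.2 and 3 CPM in RA+VitC iTreg, 19.9 and 35.9 in TGFβ iTreg, 0.269 and 1.23 in Treg, against 1.2 and 1.6 in naive cells. TGFβ iTreg stood far above the rest, and RA+VitC iTreg were lower than TGFβ iTreg (log2 fold change -3.19, SE 0.34, edgeR adjusted p = 2e-14). The Il17a calls rest on 31 and 69 reads in TGFβ iTreg. Il17f, also on the list, did not show this order. It had 9.32 and 14.7 CPM in RA+VitC iTreg and 5.78 and 12.5 in TGFβ iTreg, which overlapped. Treg had 2.96 and 2.47 CPM over Il17f and naive cells 1.33 and 1.6. Its reads were 32 and 49 in RA+VitC iTreg and 9 and 24 in TGFβ iTreg. Between the 2 iTreg, 5 of the 20 were higher and 5 lower in RA+VitC iTreg, against 12.4% and 10.7% of all symbols. Mcl1, a survival gene, led the higher ones at 0.49, and Il23r, the IL-23 receptor chain, followed Il17a among the lower ones at -0.59. The lists overlap: Socs3, Il21 and Il23r each stand in 2 of them.

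**Figure D4:**
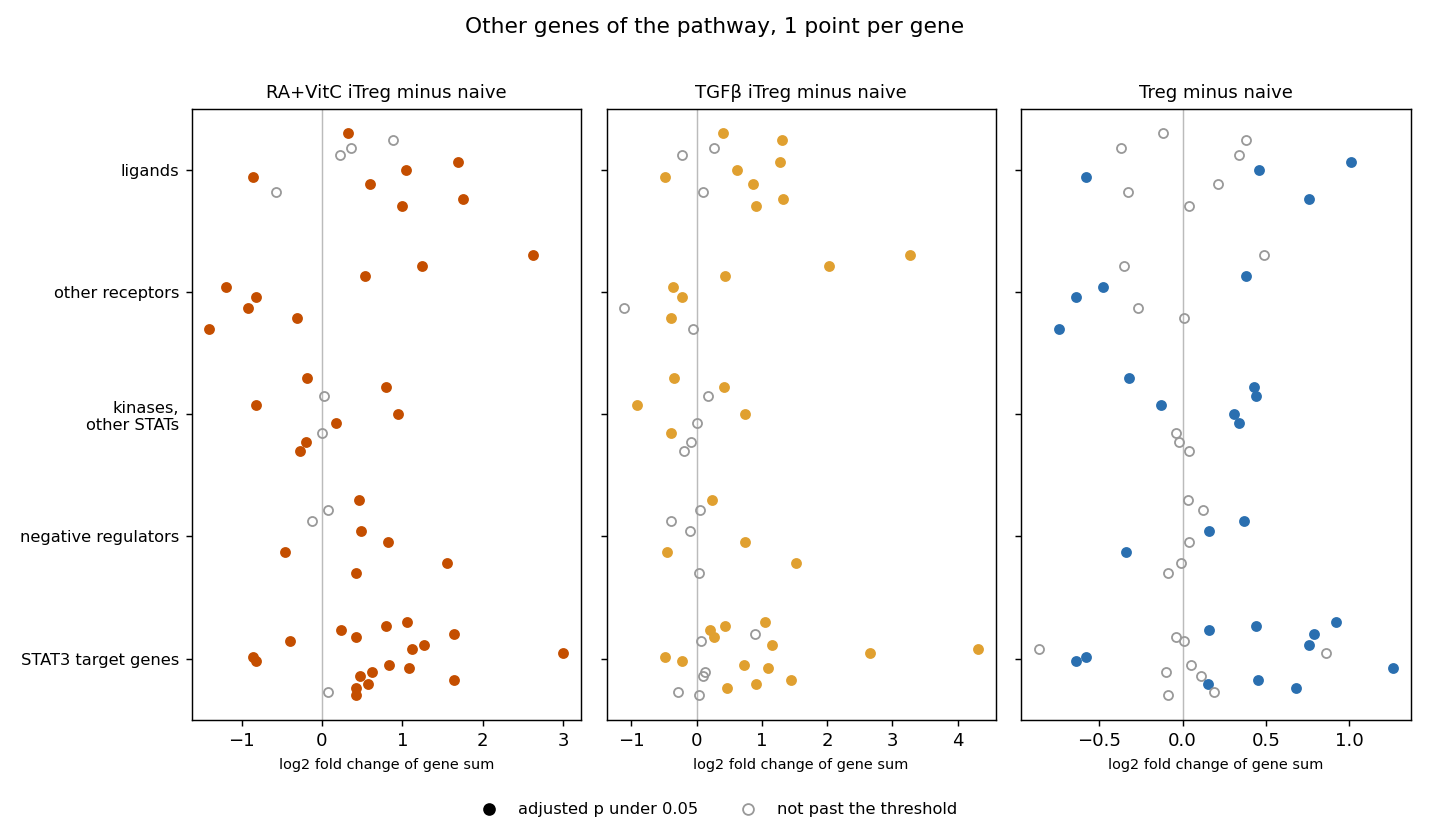
Log2 fold change of the gene sum over naive cells (x axis; its range differs between panels) with 1 point per tested gene and 1 row per pathway list (y axis, 5 lists), in RA+VitC iTreg, TGFβ iTreg and Treg. Filled points have an adjusted p under 0.05. Most STAT3 target genes lie right of 0 in RA+VitC iTreg (16 of 20, where 29.2% of all symbols were higher), while receptors and kinases lie on both sides.

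Across the 8 pull-downs, which share groups and depth differences, the sums of the 6 genes did not follow a common pattern. Pearson's r of log2 CPM was 0.84 between Lifr and Il6ra, -0.91 between Lifr and Il27ra, 0.67 between Il21r and Stat3, and -0.02 between Il6ra and Stat3. The genes most like each member, among 8183 with a mean of at least 100 reads, were Prkar1b (r = 0.999), Snhg10 and Mkln1 for Lifr, B4galt5 (0.996), Stac2 and Scrg1 for Il6ra, and Tmem11 (0.99), Rbm14 and Ddx6 for Il6st. For Il27ra they were Pgap2 (0.995), Prr29 and Med14, for Il21r Slc44a2 (0.989), Rap1a and Haus1, and for Stat3 Cdc42se2 (0.984), Lnx2 and Hcls1. With 8 libraries in 4 groups, such values mainly reflect the order of 4 means, and they carry no test.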

How the data were processed

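The authors deposited 1 table of raw counts, whole numbers of reads per region and library in 16 libraries, on build mm9. Its name gives merged broad peaks (MACS2, q-value 0.01), and per the file headers each region carries its nearest transcript, nearest start and gene parts. Per the submitters' processing notes, the tools were MACS2 2.1.0.20151222, SAMtools 1.7 and Trim Galore 0.4.2; for aligner and counter, the name was not given in the sources used here.

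All 8 pull-downs entered 1 model of edgeR 4.0.16 under R 4.3.3, with group as the term, TMM factors and filterByExpr (min.count 10). Calls are quasi-likelihood F tests (residual degrees of freedom: 4) at a Benjamini-Hochberg adjusted p under 0.05. Regions (135412 tested) and sums per symbol (14951 tested) were fitted separately, each with its own scaling, so region CPM do not add up exactly to the sum. Pull-down CPM use TMM-scaled library sizes, input CPM plain ones. Values are relative within a library, since spike-ins were not used. A region with 0 reads may stand at up to 3 reads. The fit was tested on simulated data. Alternatives were library sizes, DESeq2 1.42.0, other filters, thinning to 1648804 reads, leaving out each library, transcript regions alone and a replicate block. The replicate numbers of the sorted cells and the tags shared by iTreg titles were not taken as pairs, since the labels do not say what they mark. Replicate differences correlated at 0.012 and 0.016 over regions averaging 50 reads or more. Counting noise can hide a shared batch there, so these values do not decide it. Members, lists and rules for named regions and genes were chosen with earlier results of these data known. For each gene the rule names the region with most reads, the one nearest to a start and, per comparison, the called regions with the largest and smallest change. For each list it takes up to 2 called genes at each end per comparison. A selection of these is printed, and other member regions were added after their values were seen.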

Additional observations from a re-analysis of the deposited data

How the results depend on the processing

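Of 576 alternative values of the 6 gene sums, 539 kept direction and side of the threshold, and 20 of the 29 called sums kept both under every alternative run. For the 34 tested regions the counts were 2551 of 2701 values and 56 of 86 calls. The reversals were Il6st gene sum, RA+VitC iTreg against Treg, 0.12 when summed by nearest start (an alternative chosen after seeing the data), and Il6st region 1, Treg against naive cells, 0.08 when thinned to 1648804 reads. Counts of called member regions moved as follows. RA+VitC iTreg against naive cells had 10 higher regions when only regions averaging 50 reads or more were kept and 9 when thinned, in place of 16, and 8 lower ones with plain library sizes, in place of 3. RA+VitC iTreg against Treg had 10 higher with that filter and 9 thinned, in place of 16, and 8 lower with library sizes and 6 with the filter, in place of 3. RA+VitC iTreg against TGFβ iTreg had 1 lower by DESeq2, with no filter and thinned, and 4 with the filter, in place of 2. TGFβ iTreg against Treg had 4 lower by DESeq2, in place of 8, and against naive cells 3 lower by DESeq2 and with the replicate block, in place of 5. Treg against naive cells had 3 higher by DESeq2 and thinned, in place of 5, and 2 lower by DESeq2 and 1 thinned, in place of 4. Leaving out 1 library gave 14 to 16 higher and 2 to 5 lower for RA+VitC iTreg against naive cells, 7 to 8 and 3 to 5 for TGFβ iTreg, and 3 to 5 and 2 to 5 for Treg. It gave 14 to 16 higher and 2 to 3 lower for RA+VitC iTreg against Treg, 8 to 10 and 3 to 8 for TGFβ iTreg against Treg, and 5 to 6 and 0 to 2 between the 2 iTreg. The filter leaves fewer regions and the thinning fewer reads to test, and counts moved both up and down under the filter. The causes were not tested. The replicate block ended the call of the Il6ra gene sum between the 2 iTreg (-0.15) and of the Il21r gene sum in TGFβ iTreg against naive cells (-0.19). Among regions it ended those against naive cells of Il6st region 7 (-0.98) and Il6ra region 6 (-1.08) in TGFβ iTreg, of Il6st region 9 (-0.16) and Il21r regions 2 (0.26) and 3 (0.27) in RA+VitC iTreg, and of Il6st region 6 in Treg (0.40). Against Treg it ended those of Il6ra region 4 (0.57), Il6st region 7 (-0.81), Lifr region 1 (2.07) and Il21r region 3 (-0.26) in TGFβ iTreg, and of Il6st region 1 (0.66) and Lifr region 4 (2.1) in RA+VitC iTreg. It changed no other call of the 6 gene sums and 34 regions, and the numbers are not known to pair libraries. With plain library sizes the median of all gene sums shifted by -0.15 (against naive cells), -0.16 (against Treg) and -0.10 (against TGFβ iTreg) for RA+VitC iTreg. Thinning ended the calls of the Il6ra, Il27ra and Il21r gene sums in Treg against naive cells (-0.07, -0.33 and -0.21). It also ended those of the Il6ra gene sum between the 2 iTreg (-0.14) and of the Stat3 gene sum in TGFβ iTreg against Treg (-0.22). The TGFβ iTreg pull-downs are the shallowest, and regions with few reads there could be tested only for large differences.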
